A study of Caenorhabditis elegans with 4 samples.

Results

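The peaks described here are those that chromatin immunoprecipitation of CEY-2 placed at nuclear transfer RNA (tRNA) genes of Caenorhabditis elegans. They were selected from the peak list of the pooled replicates in genome build ce11. A peak was taken, mitochondrial peaks left out, where its summit lay within 500 bp of the start of an annotated tRNA gene, so the members were chosen by the measured peak positions themselves. The rule found 392 of the 25484 peaks in the list, of which 25458 were nuclear. Where overlapping intervals were merged, the 392 peaks made up 343 distinct regions. The counts that follow from this choice are descriptions, and no test was made of them.

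Chromatin immunoprecipitation followed by sequencing (ChIP-seq) had been carried out on whole hermaphrodites at the L4 larval stage, of unknown age. All animals were of strain OP358, which carries the mutation unc-119(tm4063) on chromosome III and the transgene insertion wgIs358, from which CEY-2 is made with GFP and FLAG at its C terminus. Anti-GFP antibody was used on sonicated chromatin to pull down the tagged protein. There were 4 libraries and 3 biological replicates in 1 group, since the 2 technical libraries of replicate 2 count as 1 replicate. The promoter that drives the tagged protein is not given in the sources used here, and a whole animal mixes soma and germ line. The control libraries were not analysed here, nor were worms without the tag.

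RNA polymerase III transcribes tRNA genes from promoters that lie inside the gene. The factor TFIIIC binds an A box and a B box within the transcribed sequence and brings TFIIIB to the DNA just upstream of the start, and a run of T ends the transcript. CEY-2 belongs to the Y-box proteins, whose cold shock domain binds nucleic acids and which are best known for packaging messenger RNA.

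The sequences below show the genes at which the highest of these peaks lay, in build ce11 (WBcel235). Each runs 5′ to 3′ along the gene's strand, with 40 bases before the gene, the gene, and 20 bases after it. Capitals mark a match to GTTCNANNC, the core of the B box. The first set holds the 2 highest members and, for contrast, a gene with the same 73 bases in its body but no summit within 500 bp in any of the lists. All of them encode a lysine tRNA. B0350.t1 is shown at chrIV:5967120-5967252 on the plus strand, W03G11.t1 at chrX:12106127-12106259 on the minus strand and K01A11.t1 at chrIII:3426893-3427025 on the minus strand. K01A11.t1 was chosen after its values were seen.
B0350.t1: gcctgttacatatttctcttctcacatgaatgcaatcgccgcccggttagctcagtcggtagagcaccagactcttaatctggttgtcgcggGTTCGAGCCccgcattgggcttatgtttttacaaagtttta
W03G11.t1: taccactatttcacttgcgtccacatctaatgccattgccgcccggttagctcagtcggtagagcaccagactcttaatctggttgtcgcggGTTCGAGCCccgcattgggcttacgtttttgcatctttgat
K01A11.t1: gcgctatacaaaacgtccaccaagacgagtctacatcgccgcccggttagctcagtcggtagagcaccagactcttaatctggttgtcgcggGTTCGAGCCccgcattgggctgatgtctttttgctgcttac
The bodies are the same letter for letter and the flanks differ. This body occurred at 25 places in the genome, so a short read from inside it cannot be assigned to 1 of them, whereas reads that reach into the flanks can.

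The next set shows other members that the results return to. T23F1.t2, for proline, led in replicate 1 and is shown at chrV:15465205-15465336 on the minus strand. M02F4.t1, for glycine, was among the highest in replicate 3 and is shown at chrX:3036124-3036255 on the plus strand. C02B4.t1, for isoleucine, is shown at chrX:12661124-12661267 on the plus strand, and W09G10.t3, for threonine, at chrII:3519066-3519197 on the minus strand. The last 2 have bodies found nowhere else in the genome. Some of these peaks also lay within 500 bp of a neighbouring tRNA gene start. The peak at T23F1.t2 reached T23F1.t1, for lysine, and that at M02F4.t1 reached M02F4.t2, for glutamate. The peak at W09G10.t3 reached W09G10.t2, a lysine tRNA gene with the body of B0350.t1.
T23F1.t2: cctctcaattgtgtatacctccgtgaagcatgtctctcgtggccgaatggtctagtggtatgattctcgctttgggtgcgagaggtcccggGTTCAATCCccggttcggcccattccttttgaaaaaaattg
M02F4.t1: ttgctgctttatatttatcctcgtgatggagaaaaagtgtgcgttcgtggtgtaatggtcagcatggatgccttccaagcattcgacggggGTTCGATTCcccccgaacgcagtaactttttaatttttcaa
C02B4.t1: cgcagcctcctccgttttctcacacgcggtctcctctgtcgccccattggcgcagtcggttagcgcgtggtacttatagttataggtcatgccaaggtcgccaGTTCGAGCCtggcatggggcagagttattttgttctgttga
W09G10.t3: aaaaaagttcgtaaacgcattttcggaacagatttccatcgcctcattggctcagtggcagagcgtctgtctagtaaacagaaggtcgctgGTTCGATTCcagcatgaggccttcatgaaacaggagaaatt
Each of these genes held 1 match to the B box core, near the 3′ end of the gene.

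Before the values, the lists themselves need describing. The signal value of a peak comes from the authors' peak caller, and it served only to rank and describe peaks within 1 list. Replicates 1, 2 and 3 had 30000, 30000 and 21628 peaks, so a place in one list is not comparable with a place in another. No read counts were given and the depth of each library is unknown. The pooled list was made from the same reads as the replicate lists, so a summit found again in a replicate is no independent support. Ranks below count nuclear peaks, with 1 the highest signal, and a rank percentile is the percent of nuclear peaks in the list with a lower signal. Shares carry exact 95% intervals (Clopper-Pearson), which cover counting error only.

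Most nuclear tRNA genes had a peak. A summit of the pooled list lay within 500 bp of the start of 396 of 612 tRNA genes, 64.7% (60.8 to 68.5). The same held for 29.8% of all 31527 nuclear genes other than piRNA genes. Among short RNA genes the share was 46.8% (41.5 to 52.2) of 346 snoRNA genes, 32.6% (24.6 to 41.4) of 129 snRNA genes and 31% (25.5 to 37) of 261 miRNA genes. It was 30.4% (29.8 to 31) of 19973 coding genes, while none of 20 nuclear rRNA genes had a peak, which allows a share of up to 16.8%. Of these classes, tRNA genes had a pooled peak most often, where neighbouring tRNA genes that share 1 peak count separately.

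The replicates differed in how many tRNA genes they reached. Replicate 1 had a summit at 282 tRNA genes, 46.1% (42.1 to 50.1), beside 31.1% of all genes. Replicate 2 had one at 395, 64.5% (60.6 to 68.3), beside 32.9% of all genes. Replicate 3 had one at 380, 62.1% (58.1 to 66), beside 24.7% of all genes, from the shortest list. Replicate 1 was the lowest, with a list as long as that of replicate 2, and its interval did not overlap those of the other replicates. With each list cut to its 21605 highest nuclear peaks, the length of the shortest, the counts were 234, 362 and 380. Of the 612 tRNA genes, 166 had a peak in all 3 replicate lists, 207 in 2 of them, 145 in 1 and 94 in none. The same split was not counted over all genes. In no list at all, the pooled one included, did 84 genes have a peak.

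The tRNA gene peaks ranked high in the pooled list. Their signal ran from 7.7 to 86.8 with a median of 15, and all nuclear peaks had a median of 10.8. Their median rank percentile was 78.3, and 94 of the 392, 24% (19.8 to 28.5), were in the top 10% of the list. Within their own lists, the peaks at tRNA genes had a median rank percentile of 56.8 in replicate 1 (297 peaks), 75.4 in replicate 2 (404 peaks) and 75 in replicate 3 (391 peaks). Peaks at coding gene starts had a median of 55.3 in the pooled list, those at snoRNA genes 72.3, at miRNA genes 67.1 and at snRNA genes 66.5. In replicates 1, 2 and 3, peaks at coding gene starts had a median of 54, 55.3 and 52.8 within the same list. In replicate 1 the tRNA gene peaks thus stood close to the coding gene peaks, and in the other replicates they stood above them.

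Few of the peaks passed the authors' stricter selection. The list of peaks that met their irreproducible discovery rate (IDR), a measure of how well ranks recur between replicates, held 12 of the 392 members, at 17 tRNA genes. That list took 2.3% of all nuclear pooled peaks, so 12 of 392 is close to the background. These 12 were also the 12 highest members, and 8 of them lay on chromosome X. The 611 highest peaks of the pooled list, as many as the IDR list holds, gave the same counts: 586 nuclear peaks, with 12 members at 17 tRNA genes. A place on the IDR list is thus no support apart from the pooled rank. Each member is named by the nearest tRNA gene start. The peaks at T23F1.t2, R11.t1, W09G10.t3, F15G9.t1 and M02F4.t1 each lay within 500 bp of a neighbouring tRNA gene start as well.

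The highest member lay at B0350.t1, a lysine tRNA gene between coding genes on chromosome IV. Its interval was chrIV:5967027-5967416 and its signal was 86.8, rank 26. The matched summit, taken as the highest within 200 bp, had signal 22.8 and rank 116 in replicate 1, 41.7 and rank 29 in replicate 2, and 19.3 and rank 39 in replicate 3. It was high in all 3 lists, and B0350.t1 was the only tRNA gene reached by the 611 highest peaks of each replicate, as many as the IDR list holds. A second, low member (rank 18251) lay beside it.

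W03G11.t1, with the same body on chromosome X, followed with a signal of 65 at chrX:12105997-12106386, rank 73. It ranked 1457 in replicate 1, 142 in replicate 2 and 87 in replicate 3. T23F1.t2, for proline on chromosome V, had a signal of 55.1 at chrV:15465026-15465415, rank 151, and ranked 60, 297 and 1367. The order of the replicates was thus reversed between these members: W03G11.t1 was lowest in replicate 1 and T23F1.t2 was highest there.

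The next members also differed by replicate. T23H4.t1, for glutamate on chromosome I, had a signal of 49.4 and ranked 233, 489 and 589. C02D4.t1, for isoleucine in an intron on the opposite strand of a coding gene, had 48.2 and ranked 1678, 407 and 374. R11.t1, for tyrosine in a group of 4 tyrosine tRNA genes, had 44.5 and ranked 180, 691 and 2009. T23H4.t1 was the most even of these members, while C02D4.t1 and R11.t1 leaned opposite ways. C02B4.t1 (signal 40.1) had no matched summit in replicate 1 and ranked 317 and 428 in replicates 2 and 3. R04D3.t2, for valine, had 38.7, no match in replicate 2, and ranks 339 and 127 in replicates 1 and 3.

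W09G10.t3 had a signal of 39.9 and ranked 145, 1832 and 225. R01H5.t1, for threonine, had 39.7 and ranked 1241, 529 and 11082, the lowest place of any of the 12 in any list. F15G9.t1, for alanine in an intron on the strand of its host gene, had 37 and ranked 8331, 292 and 1374. M02F4.t1 had 36.4 and ranked 1754, 1113 and 41. So a place among the 12 highest of the pooled list did not require a high place in each replicate, and 10 of the 12 had a match in all 3. Outside these, the highest members of a replicate's list included F15B9.t1, for alanine on chromosome V, which ranked 229 in replicate 2 and 811 in the pooled list.

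**Figure D1:**
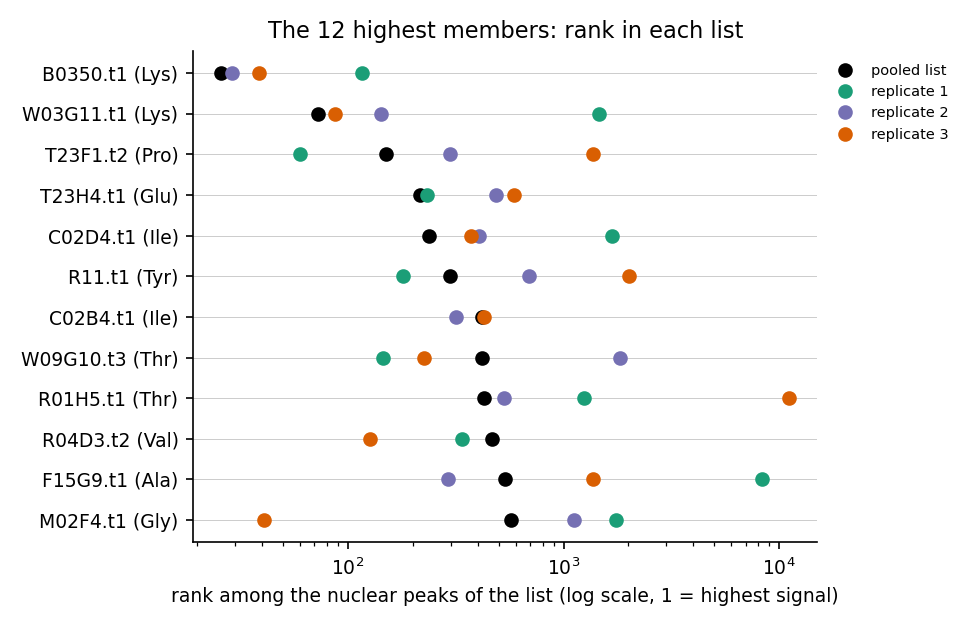
Rank of the 12 highest members among the nuclear peaks of the pooled list and of each replicate's list, on a log axis where 1 is the highest signal. A missing point means no summit within 200 bp. B0350.t1 ranks between 26 and 116 in all lists, whereas R01H5.t1 ranges from 430 in the pooled list to 11082 in replicate 3.

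Members that shared a gene body did not share a rank. Of the 25 lysine tRNA genes with the body of B0350.t1, 18 had a pooled peak, with ranks from 26 at B0350.t1 to 13421 at M01E5.t1. Neighbouring genes share some of these peaks, as K11E4.t5 and K11E4.t6 do at rank 7372. Of the other 7 genes, 5 had a summit in at least 1 replicate list, and C17D12.t1 and K01A11.t1 had none. The spread in rank was therefore present among genes whose annotated bodies are identical and whose flanks differ.

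Other families of identical genes differed in how many copies had a pooled peak. The proline family of 24 genes had one at 23, and the cysteine family of 12 at all 12. The largest, a glycine family of 29, had one at 20, and the median rank percentile of these was 93.7. The histidine family of 11 had one at 4. The arginine and leucine families whose 10 and 9 genes all lie on chromosome X had one at 8 and 6. None of these differences was tested.

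By amino acid, leaving out selenocysteine with its only gene, the share of tRNA genes with a pooled peak was highest for cysteine, 13 of 13 (75.3 to 100), and for proline, 35 of 42 or 83.3% (68.6 to 93). It was lowest for histidine, 7 of 20 or 35% (15.4 to 59.2), and tyrosine, 9 of 19 or 47.4% (24.4 to 71.1). Cysteine genes had a peak at 7, 13 and 12 of 13 in replicates 1, 2 and 3, and histidine genes at 2, 9 and 8 of 20. In replicate 1 the cysteine share, 53.8%, was thus nearer to that of all tRNA genes, 46.1%, and the intervals of most other amino acids overlapped in the pooled list. Neighbouring genes can share 1 peak, as some cysteine and proline genes do, so genes are not independent and the intervals do not test these differences. K11H12.t1, the selenocysteine tRNA gene on chromosome IV, had a pooled peak at rank 10549, with summits in replicates 1 and 2 and none in replicate 3. An amino acid was taken from RefSeq for 607 of the 612 genes.

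**Figure D2:**
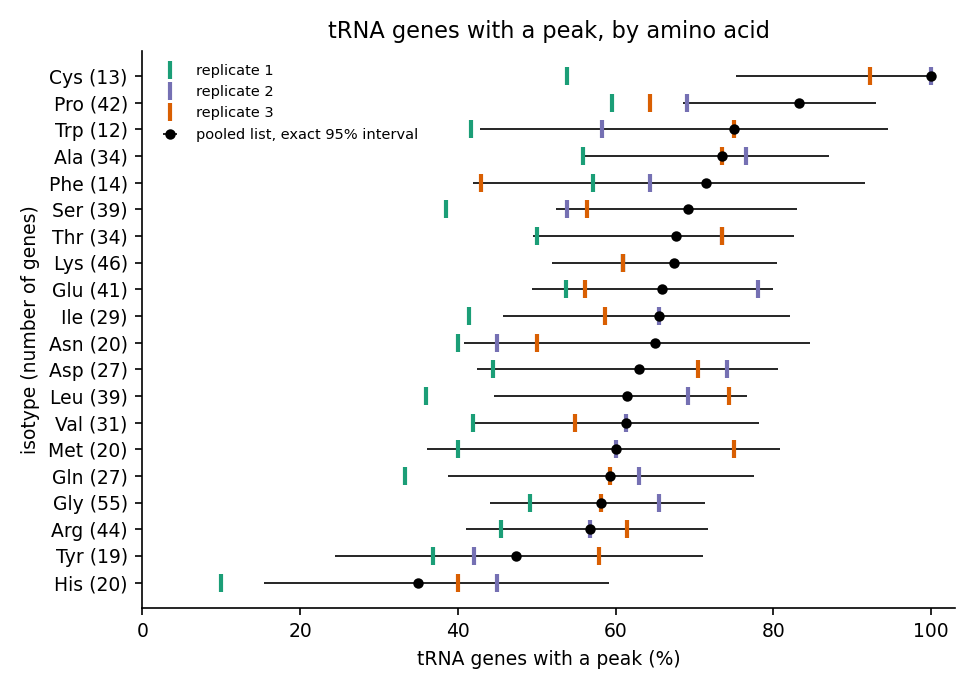
Percent of tRNA genes with a summit within 500 bp, by amino acid, with the number of genes in brackets; selenocysteine and genes without a RefSeq amino acid are not drawn. Points give the pooled list with exact 95% intervals and coloured ticks the 3 replicate lists. Cysteine (100%) and proline (83.3%) lie at the top and histidine (35%) at the bottom, and replicate 1 is often the lowest tick. The histidine genes include the 6 of F28H6.t2 to F28H6.t7, none with a pooled peak. Neighbouring genes that share 1 peak count separately.

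Summits lay close to the tRNA genes. The median distance from the start was 71.5 bp, about the length of a tRNA gene (median 72 bp), and 58.4% (53.4 to 63.3) of the members had their summit within 100 bp. Of the peaks at coding gene starts, 25.3% (24.3 to 26.4) lay within 100 bp, and of those at snoRNA genes 39% (32 to 46.4). Along the gene's strand, 151 summits were upstream of the start, 110 inside the gene and 131 downstream of its end. At coding genes, 61.3% of summits were upstream, against 38.5% (33.7 to 43.5) at tRNA genes. All 392 intervals were 390 bp wide with the summit at the centre, and 341 of them, 87% (83.3 to 90.2), overlapped a tRNA gene.

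The nearest summits were also the higher ones. Members within 100 bp of the start had a median rank percentile of 84, and those beyond 100 bp one of 65.3. Members with the summit inside the gene had 84.7, upstream 75.5 and downstream 72.9. At the limit of the rule, the farthest member was at C37A5.t1 on chromosome I, with its summit 498 bp away, signal 12.7 and rank 8471. The nearest peak left out was at ZK154.t5 on chromosome X, 501 bp away, with signal 7.66 and rank 25224.

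**Figure D3:**
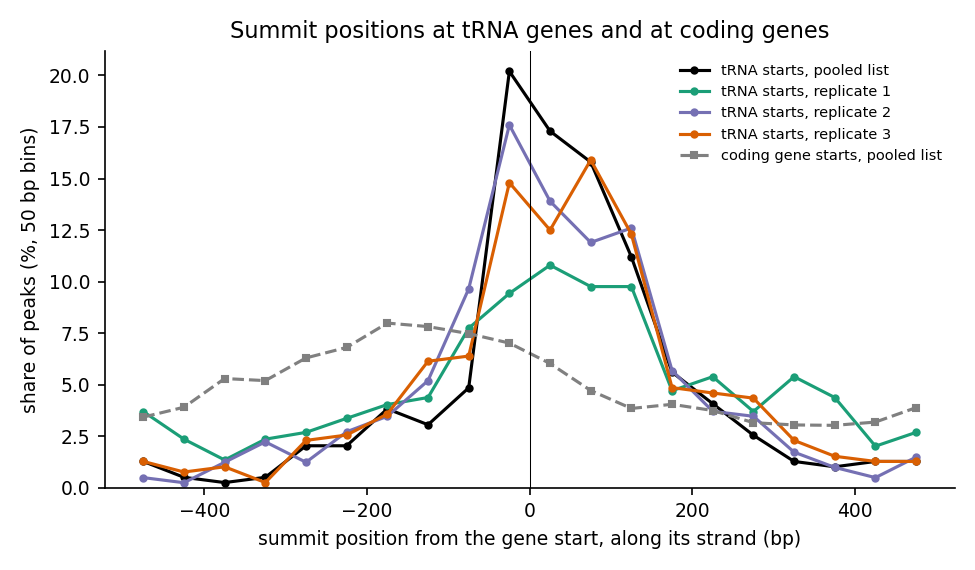
Position of summits from the gene start, along the gene's strand, as the percent of peaks in 50 bp bins. Solid lines give peaks at tRNA genes in the 4 lists and the dashed line gives pooled peaks at coding gene starts. The tRNA peaks of the pooled list and of replicates 2 and 3 crowd around the start and the gene, those of replicate 1 are flatter, and coding gene peaks spread mostly upstream.

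Other genes lay near many of these summits. Another gene start, of neither a tRNA nor a piRNA gene, lay within 500 bp of 287 members, and a coding gene start within 500 bp of 72. For 268 of the 392, 68.4% (63.5 to 72.9), the tRNA gene start was the nearest of all gene starts, piRNA genes left out. Their median rank percentile was 79.8, and it was 73 for the 124 members nearer to another start. With piRNA genes again left out, 93 tRNA genes had no other gene start within 1000 bp. Of these, 52 had a pooled peak, 55.9%, beside 27.5% of all such isolated genes. This restriction was chosen after seeing the data.

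By chromosome, the members followed the tRNA genes. Chromosome X held 186 members, 47.4% (42.4 to 52.5), and 276 tRNA genes, 45.1% of all, whereas 17.9% of all nuclear pooled peaks lay on X. The share of tRNA genes with a pooled peak was 75.4% (62.2 to 85.9) on chromosome II and 71% (65.3 to 76.3) on X. It was 60.3% on V, 59.4% on III, 56.3% on IV and 48.5% (36 to 61.1) on I. The members on X were thus close in share to the tRNA genes on X and far above the share of all peaks there. Although chromosome I had the lowest share, its 34 members had the highest median rank percentile, 87.2, and those of chromosome V the lowest, 63.8.

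The replicates did not order the chromosomes alike. On chromosome V, replicate 3 reached 31 of 78 tRNA genes, 39.7% (28.8 to 51.5), and replicate 2 reached 46. On chromosome I, replicate 3 reached 41 of 66, 62.1% (49.3 to 73.8), and replicates 1 and 2 reached 30 and 32. On X, replicates 1, 2 and 3 reached 131, 187 and 192 of 276. Replicate 3 was therefore below replicate 2 on V and above it on I, with intervals that overlapped on both.

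**Figure D4:**
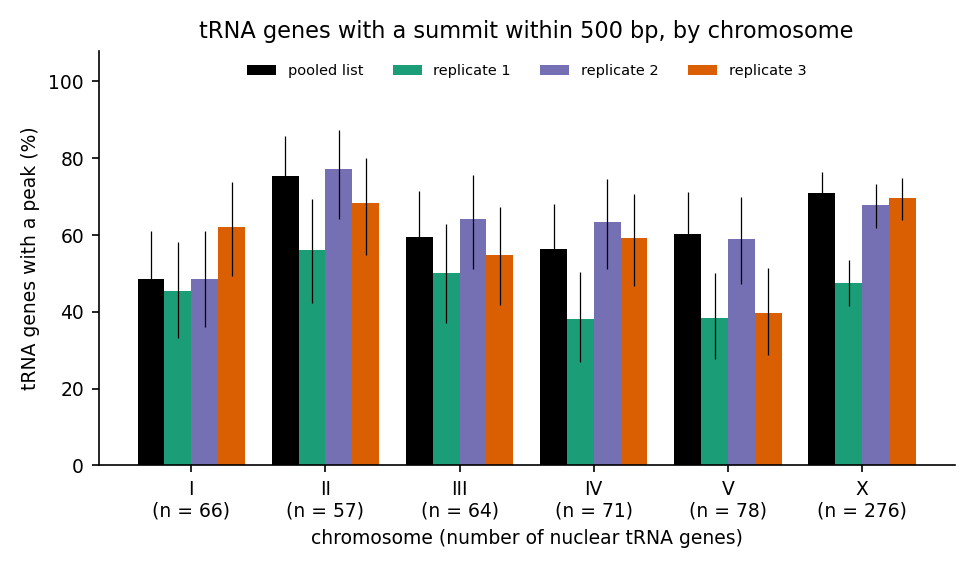
Percent of the tRNA genes of each chromosome with a summit within 500 bp, in the pooled list and in each replicate's list. Bars start at 0 and lines give exact 95% intervals. Replicate 3 falls to 39.7% on V and stands at 62.1% on I, and replicate 1 is the lowest on every chromosome.

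Packed and lone tRNA genes had peaks at similar shares in the pooled list. A tRNA gene was called packed where another tRNA gene start lay within 2000 bp. Packed genes had a pooled peak at 184 of 269, 68.4% (62.5 to 73.9), and lone genes at 212 of 343, 61.8% (56.4 to 67). The share did not climb with the number of neighbours: it was 72.2% of 176 genes with 1, 63.2% of 68 with 2 to 3 and 56% (34.9 to 75.6) of 25 with 4 or more. Of the 392 members, 146, 37.2% (32.4 to 42.2), lay at packed genes, and their median rank percentile was 77.5, against 79.3 at lone genes. The intervals of packed and lone genes thus overlapped. In replicate 2 they did not, at 71.7% (66 to 77) and 58.9% (53.5 to 64.1). Since 1 summit can reach several packed genes, these genes are not independent, and the intervals do not test the difference.

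The groups with most members each held 4. One, chrX:8152546-8156707, has 8 tRNA genes (F22F1.t2 to F22F1.t9, for serine, aspartate, methionine and isoleucine), of which 5 had a pooled peak. Its signals ran only from 9.97 to 13.6, with a best rank of 7154. Replicate 2 reached all 8 genes, replicate 3 reached 5 and replicate 1 reached 1. The other, chrIV:16398384-16400967, has 4 genes (Y65A5A.t1 to Y65A5A.t4, for alanine, valine and histidine), with signals from 10.5 to 28.3 and a best rank of 1115. Of the 111 groups of 2 or more tRNA genes, 94 had a peak and 17 had none, beside 212 of the 343 lone genes with a peak. A group offers more than 1 start for a summit to reach, so these counts are not comparable.

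Copy number and the B box core went with the share of genes that had a peak. Genes whose body occurs once in the genome had a pooled peak at 68 of 140, 48.6% (40 to 57.2), and those with over 15 copies at 136 of 187, 72.7% (65.7 to 79). Genes with 2 to 5 and with 6 to 15 copies stood between, at 67.5% and 67.3%. The B box core was present in 587 of 612 genes, of which 66.1% (62.1 to 69.9) had a pooled peak. Of the 25 genes without it, 8 did, 32% (14.9 to 53.5). Among genes with a body of 1 copy that hold the core, 64 of 127 had a peak. The share of 36-base words within 200 bp of the start that occur once in the genome had a median of 86.3% in genes with and in genes without a peak. Its lowest value was 38.5% in genes with a peak and 0% in those without, and its lower quartile 84.7% and 81.9%. Around the summits, the median was 87.2% in members and 100% in all nuclear pooled peaks. Whether this bears on the peaks was not tested. How the authors treated reads that map to several places is not given in the sources used here.

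The sequence under the summits held the core more often than other peaks did. GTTCNANNC, read on both strands, was found within 100 bp of the summit in 61.5% (56.5 to 66.3) of members, in 7.53% of all nuclear peaks and in 95.1% of windows of the same length at tRNA gene starts. A longer form, GGTTCGA followed by any 2 bases and CC, was found in 37.8% of members and 0.856% of all nuclear peaks. These matches follow from the rule, which places a summit near a tRNA gene. Within tRNA genes, the core was in 97% of windows at starts with a pooled peak and 91.7% of those without.

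Among the other words, GAGAGA stood apart. It was found within 100 bp of 25.8% (21.5 to 30.4) of tRNA gene starts with a pooled peak and 12% (8.02 to 17.1) of those without. In windows at summits it was found in 21.4% (17.5 to 25.8) of members and in 15% of all nuclear peaks. An A box form, TGG followed by any 3 bases and AGTGG, was found at 29.3% of starts with a peak and 28.7% of those without, and its stricter form with C at the first of the free places at 7.83% and 13.4%. A run of T, TTTTT, was found at 91.9% and 94%. CACGTG was found at 2.02% and 0.926%, and TGATAA at 16.9% and 22.2%. The GC content of the windows had the medians 45.8% and 45.3%. A match is a description and not a bound site, and the words that are neither box nor T run had been chosen with earlier results of these data known.

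Recurrence between replicates was more frequent at tRNA genes than over all peaks in replicates 2 and 3. A summit within 200 bp was found in replicate 2 for 287 of the 392 members, 73.2% (68.5 to 77.5), beside 52.2% of all nuclear pooled peaks. In replicate 3 it was found for 257, 65.6% (60.6 to 70.3), beside 34.6%. In replicate 1 it was found for 213, 54.3% (49.3 to 59.3), beside 57%, a share near the background. All 3 replicates had a match for 89 members, 22.7% (18.6 to 27.2), beside 10.5% of all nuclear peaks. No replicate had one for 15 members, 3.83% (2.16 to 6.23), beside 10% of all nuclear pooled peaks. A replicate summit can match more than 1 member, and 30, 36 and 38 members shared theirs in replicates 1, 2 and 3.

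Where they were matched, the median rank percentile was 66.2 in replicate 1, 84.9 in replicate 2 and 85.6 in replicate 3. Over all matched nuclear peaks it was 67.8, 70.5 and 67.9. Of the 89 members matched in all 3, 26 had their highest percentile in replicate 1, 28 in replicate 2 and 35 in replicate 3, the last 39.3% beside 27.6% of the 2675 nuclear peaks matched in all 3. Members therefore stood above other matched peaks in replicates 2 and 3 and not in replicate 1.

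At the very top, replicate 3 differed from both others. Its 611 highest peaks reached 46 tRNA genes, and those of replicates 1 and 2 reached 15 each, beside 1.31%, 1.01% and 1.19% of all genes in replicates 3, 1 and 2. Counted as nuclear peaks, 35 of 588 in replicate 3 were at tRNA genes, 5.95% (4.18 to 8.18), against 12 of 584, 2.05% (1.07 to 3.56), in replicate 1 and 13 of 588, 2.21% (1.18 to 3.75), in replicate 2. The interval of replicate 3 did not overlap the others. Further down, replicate 2 approached it: the highest 5000 nuclear peaks held 71, 160 and 188 tRNA gene peaks in replicates 1, 2 and 3, and the highest 10000 held 117, 249 and 270. So replicate 3 alone was high at the top, and replicate 1 alone was low in the longer lists.

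**Figure D5:**
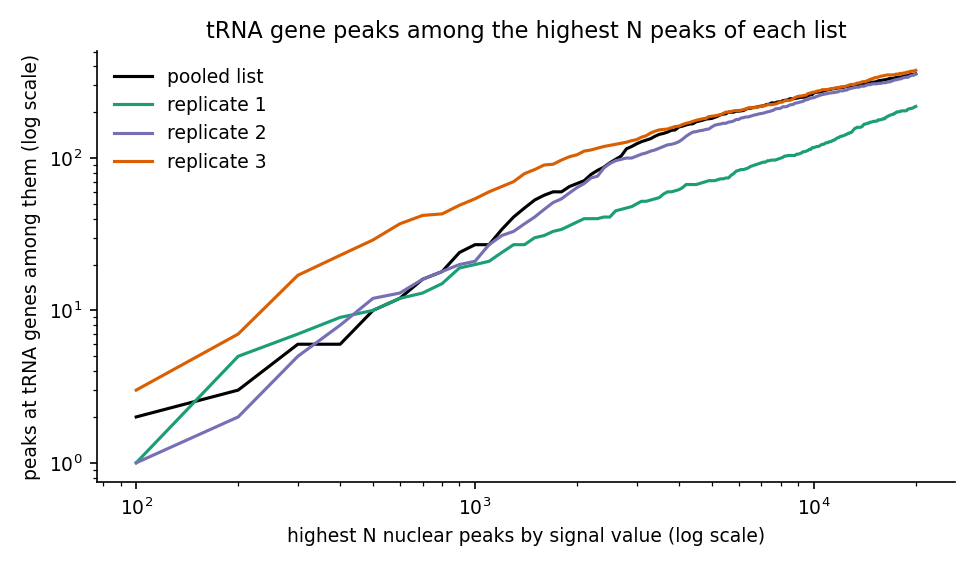
Number of tRNA gene peaks among the highest N nuclear peaks, for each list, both axes on a log scale. Replicate 3 lies above the other lists to beyond the highest 5000 peaks, where it holds 188 tRNA gene peaks and the pooled list 182. At the highest 2000 peaks it holds 105, against 38 and 64 in replicates 1 and 2. Replicate 1 falls below all lists further down.

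The tRNA genes at the top of replicate 3 lay mostly on X. Of its 46, 33 were on X, 71.7%, and of the 15 each in replicates 1 and 2, 7 were on X, 46.7%, beside 45.1% of all tRNA genes. Packed genes made up 26 of the 46 in replicate 3, 9 of the 15 in replicate 1 and 5 of the 15 in replicate 2, that is 56.5%, 60% and 33.3%, beside 44% of all tRNA genes. Since 1 peak can reach several packed genes, the shares were also counted over peaks. In replicates 3, 1 and 2, 42.9%, 50% and 23.1% of the peaks were at packed genes, and 65.7%, 50% and 46.2% were on X. Of the tRNA genes reached at this depth, replicates 1 and 3 shared 6 (40% of 15 and 13% of 46), replicates 2 and 3 shared 4 (26.7% and 8.7%) and replicates 1 and 2 shared 4 (26.7% of each). B0350.t1 was shared by all. Replicate 3 alone reached 37 genes at this depth, of which 36 had a pooled peak, 31 a peak in replicate 2 and 17 a peak in replicate 1. Those with a peak had median rank percentiles of 98.5, 81.4 and 69.9 in replicates 3, 2 and 1. The lower places in replicates 1 and 2 follow from how these 37 genes were picked. The overlap between replicates at this depth was not counted over all genes. The counts of genes shared, or reached by replicate 3 alone, therefore do not set tRNA genes apart from other genes.

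Some genes that encode the machinery of tRNA production had a peak, beside 30.4% of all coding genes, and nothing particular to these short lists was read from their counts. A pooled summit lay within 500 bp of the start of 5 of 21 cytosolic aminoacyl-tRNA synthetase genes, which charge tRNAs. It did so for 6 of 14 genes of RNA polymerase III and its factors and for 3 of 8 genes of tRNA processing and export. The highest was at rpac-19, which encodes a subunit shared by RNA polymerases I and III, with signal 33.4 and rank 709. It ranked 1874 in replicate 1 and 378 in replicate 2 and had no peak in replicate 3. The gene of the largest polymerase III subunit, rpc-1, had signal 16.1 and rank 4608, and xpo-3, for the tRNA exporter, had 20.5 and rank 2578. In the processing list hoe-1, for the enzyme that trims the 3′ end of tRNAs, ranked 5815. Among synthetase genes cars-1 ranked 3081 and fars-1 ranked 4291, for cysteine and phenylalanine. None of these genes had a peak on the IDR list.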

How the data were processed

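Narrow peak lists from 4 libraries of 3 biological replicates were used: 1 for each replicate, 1 for the pooled replicates and 1 that passed the authors' IDR threshold, in build ce11 per the labels. Per the README files, the authors aligned both technical libraries of replicate 2 as 1. The 5 lists in build ce10 were not used. The deposited signal value and the summit offset per peak are the authors' own, and neither the aligner nor the peak caller is given in the sources used here. No read counts were given, so depth is unknown.

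Summits were placed at the peak start plus the offset, written 1-based, and joined to genes of Ensembl release 115 (WBcel235), with amino acids from RefSeq. Summits were matched between lists within 200 bp, tRNA genes were grouped at 2000 bp, and words were searched within 100 bp on both strands. Python 3.11.15, numpy 2.4.6, pandas 2.3.3, scipy 1.17.1 and matplotlib 3.10.9 were used, and the joins were tested on planted summits. Shares have exact 95% intervals. With 1 group and no replicated contrast, no p-value was computed.

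The rule for named genes took the 12 highest pooled members, the 3 highest in each replicate, every IDR member, the peaks at the limit of the window, the 2 groups with most members and the 2 highest genes of each pathway list. Genes outside it were chosen after their values were seen: copies of the B0350.t1 body, K11H12.t1 and F28H6.t2 to F28H6.t7. The members, lists and words were chosen with earlier results of these data known. Pathway lists held 45 genes, of which 43 were found by symbol. Alternatives varied the window, the matching and packing distance, the list and its length.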

Additional observations from a re-analysis of the deposited data

How the results depend on the processing

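No test was made, so no call could change. No paired analysis was possible because all libraries form 1 group. The lists carry no depth, and a rank in one says nothing of the depth of another. Of 157 alternatives over 29 results, 98 stayed within the limit used and 59 moved. The limit was 1.5 times for counts, the 95% interval for shares and 10.7 percentile points for medians. That last limit was the standard deviation of the 3 replicate medians themselves. All medians stayed within it, though not unchanged. With only peaks matched to a pooled member, those of replicates 1, 2 and 3 rose from 56.8, 75.4 and 75 to 66.2, 84.9 and 85.6. With the top or IDR list of 611, members fell to 12 and tRNA genes to 17. The share of tRNA genes with a pooled peak was 48.6% for bodies of 1 copy. It was 55.9% with no other start, piRNA genes left out, within 1000 bp, a setting added after seeing the data. Also added after seeing the data was a limit to the highest 10000 nuclear peaks, which gave 132 and 262 tRNA genes in replicates 1 and 2. Members matched in all 3 replicates numbered 36 at 100 bp and 173 at 500 bp, and leaving out 1 replicate in turn gave 130 to 192 (192 without replicate 1, 130 without replicate 2, 147 without replicate 3), since fewer lists then had to match. At the highest 300, 1000 and 2000 nuclear peaks, replicate 1 reached 9, 25 and 47 tRNA genes, replicate 2 reached 7, 26 and 81, and replicate 3 reached 24, 68 and 123, so replicate 3 had the most at each. The share on X was 66.7% in the IDR list and 65.7% in the top of replicate 3. The share at packed genes was 31.6% at 1000 bp, 47.7% at 5000 bp and 46.5% over genes, and 50%, 23.1% and 42.9% in the tops of replicates 1, 2 and 3. The B box core was found in 31.4% and 84.4% of members within 50 and 200 bp, and in 67.9% of those at or above the median signal. The cause of these shifts was not tested.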

Other observations

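Where a tRNA gene lay relative to coding genes made little difference to whether it had a pooled peak. Of 319 tRNA genes between coding genes, 67.1% (61.6 to 72.2) had one. The share was 61.5% (53.5 to 69) of 161 in an intron on the strand of the host gene and 62.3% (53.1 to 70.9) of 122 in an intron on the opposite strand. Of 10 that overlap a coding exon, 7 had one.

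A pooled peak and a replicate peak did not always coincide. Of the 216 tRNA genes without a pooled peak, 132 had a summit within 500 bp in at least 1 replicate list. Of the 396 with a pooled peak, 10 had no summit in any replicate list and 164 had one in all 3. None of these was counted over all genes. Of the 84 genes with no peak in any list, 27 were on X, 32.1%, beside 45.1% of all tRNA genes. There were 17 on V (20.2%, beside 12.7%), 16 on I (19%, beside 10.8%) and 14 on IV (16.7%, beside 11.6%). Chromosome III had 9 (10.7%, beside 10.5%) and II had 1 (1.19%, beside 9.31%). A body found nowhere else in the genome was held by 31 of the 84, 36.9%, beside 22.9% of all tRNA genes.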
